A study of Mus musculus with 8 samples.

Results

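The enzymes described here make the building blocks of DNA and the folate-bound carbon units that those building blocks need. They are 9 genes (Rrm1, Rrm2, Tyms, Tk1, Shmt1, Shmt2, Mthfd1, Mthfd2 and Cad), taken by symbol from a table of 24108 named genes. The rule that names them uses none of their measured values, but they were chosen with earlier results of these data known. All 9 passed the filter on low counts and were among the 13989 genes tested, with 574 reads or more in every library.

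The sorted CD4 T cells expressed a Foxp3 reporter and came from the mesenteric lymph nodes, which drain the gut, of Foxp3DTR-GFP/Thy1.1 CD4CreER/wt R26lsl-tdTomato/wt mice. Foxp3 is the master regulator of Treg (regulatory T) cells, and the animals carried 2 reporters of it, a diphtheria toxin receptor fused with GFP and Thy1.1. Whether the Thy1.1 allele does more than report is not stated. All mice were bred and weaned on AVNM (not explained by the submitters) and on a diet of defined amino acids. Tamoxifen activated CD4CreER over about 3 weeks, so that CD4 T cells outside the thymus that lacked Foxp3 at that time became permanently red (tdTomato), and diphtheria toxin was given over the same weeks. The diet was then changed to chow, a microbiota from the faeces of specific-pathogen-free (SPF) mice was introduced, and cells were double sorted into Trizol 12 days later. Cells carrying tdTomato are called marked below and cells without it unmarked. The 4 populations were marked GFP cells, marked Thy1.1 cells, unmarked GFP cells and unmarked Thy1.1 cells, with 2 libraries each. Libraries are called by the numbers in the count table, which are 3 and 4 for GFP cells and 1 and 2 for Thy1.1 cells. It is not stated whether both libraries of a population came from different mice, so p-values reflect only the variation among these 8 libraries, and that variation may be technical. The toxin acts on cells that carry its receptor, which is fused with GFP here, so the reporter of a population and its exposure to the toxin cannot be told apart.

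The libraries held 38085686 to 47908198 reads, and 14943 to 15863 genes had at least 1 read. Levels are given as CPM (read counts scaled to library size) after scaling by the trimmed mean of M values (TMM), and as CPM per kilobase of annotated exon where different genes are compared. The defining genes of the sorted cells were present in every library, with Foxp3 at 126 to 201 CPM, Cd4 at 301 to 507 CPM and Cd3e at 965 to 1370 CPM. Foxp3 was lowest in marked GFP cells, at 126 and 141 CPM. The Treg markers Ikzf2 and Ctla4 were less even. Ikzf2 was at 183 and 128 CPM in marked GFP cells and 728 and 846 CPM in marked Thy1.1 cells. In unmarked cells it was at 289 and 470 CPM (GFP) and 627 and 696 CPM (Thy1.1). Ctla4 was at 1260 and 1070 CPM in marked GFP cells and 348 to 641 CPM in the other populations. In bulk RNA, more transcript in each cell and a larger share of cells holding the transcript cannot be told apart.

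Ribonucleotide reductase turns ribonucleotides into deoxyribonucleotides; Rrm1 is its large catalytic subunit and Rrm2 the small subunit whose level follows S phase. Thymidylate synthase (Tyms) methylates dUMP to dTMP with a folate-bound carbon, and thymidine kinase 1 (Tk1) salvages thymidine to the same product. Serine hydroxymethyltransferases load that carbon from serine onto tetrahydrofolate, in the cytosol (Shmt1) and in mitochondria (Shmt2), and Mthfd1 (cytosol) and Mthfd2 (mitochondria) interconvert the loaded folates. Cad carries out the entry steps of pyrimidine ring synthesis. T cells that leave rest to divide are known to raise this machinery, in part under E2F and MYC transcription factors.

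The sequences below are the promoters of the 4 enzymes that passed the test between populations described below. Those of Mthfd1 and Cad, which did not pass it and which varied together, are given for contrast. Each is the 250 bases before the RefSeq gene start (GRCm38.p6), read in the direction of transcription. Capitals mark CCAAT boxes (CCAAT) and GC boxes (GGGCGG), searched on both strands, so that a match on the opposite strand reads ATTGG or CCGCCC. They come from chr7:102441445-102441694, plus strand (Rrm1), chr12:24708004-24708253, plus strand (Rrm2), chr5:30073626-30073875, minus strand (Tyms), chr11:117826015-117826264, minus strand (Tk1), chr12:76254982-76255231, plus strand (Mthfd1) and chr5:31054530-31054779, plus strand (Cad).
Rrm1: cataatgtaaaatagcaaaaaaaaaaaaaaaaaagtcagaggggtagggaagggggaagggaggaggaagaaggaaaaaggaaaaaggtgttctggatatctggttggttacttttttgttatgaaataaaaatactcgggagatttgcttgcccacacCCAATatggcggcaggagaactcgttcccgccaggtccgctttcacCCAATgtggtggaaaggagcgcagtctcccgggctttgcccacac
Rrm2: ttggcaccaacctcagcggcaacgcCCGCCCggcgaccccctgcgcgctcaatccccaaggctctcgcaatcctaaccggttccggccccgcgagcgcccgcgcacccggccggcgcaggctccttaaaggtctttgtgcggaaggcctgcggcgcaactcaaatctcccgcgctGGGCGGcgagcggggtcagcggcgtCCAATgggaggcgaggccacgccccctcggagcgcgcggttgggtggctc
Tyms: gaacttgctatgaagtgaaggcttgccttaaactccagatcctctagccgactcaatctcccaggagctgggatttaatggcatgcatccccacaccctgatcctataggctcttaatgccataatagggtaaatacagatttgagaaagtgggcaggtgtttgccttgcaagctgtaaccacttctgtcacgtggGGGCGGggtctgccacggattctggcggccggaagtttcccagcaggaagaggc
Tk1: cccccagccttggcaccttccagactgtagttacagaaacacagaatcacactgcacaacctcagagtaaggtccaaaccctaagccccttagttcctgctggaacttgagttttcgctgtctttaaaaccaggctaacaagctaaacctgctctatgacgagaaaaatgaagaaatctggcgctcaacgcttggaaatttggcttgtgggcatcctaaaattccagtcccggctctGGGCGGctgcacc
Mthfd1: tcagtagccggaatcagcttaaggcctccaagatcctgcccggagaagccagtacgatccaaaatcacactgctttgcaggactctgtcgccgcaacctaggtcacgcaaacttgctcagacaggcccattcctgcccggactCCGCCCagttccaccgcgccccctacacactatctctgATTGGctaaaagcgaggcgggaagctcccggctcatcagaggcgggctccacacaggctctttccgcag
Cad: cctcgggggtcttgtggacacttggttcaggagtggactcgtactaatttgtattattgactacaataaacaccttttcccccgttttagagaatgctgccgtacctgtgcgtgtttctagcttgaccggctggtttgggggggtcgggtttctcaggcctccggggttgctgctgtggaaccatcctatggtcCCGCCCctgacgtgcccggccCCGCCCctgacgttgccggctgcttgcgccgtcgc
Rrm1 had CCAAT boxes ending 87 and 41 bases before the gene start and no GC box. Rrm2 had a CCAAT box ending 46 bases before its start and GC boxes ending 220 and 70 bases before it. Tyms and Tk1 had no CCAAT box and a GC box each, ending 49 and 8 bases before the start. Cad had 2 GC boxes, and Mthfd1 a box of each kind. No 2 marked matches overlapped in these 6 windows. Over all 9 enzymes, 5 windows held a CCAAT box, against 33.8% of 32851 promoter windows of the same length, and 6 held a GC box, against 32.7%. An E-box (CACGTG), the letters bound by MYC, was found in 1 of the 9, in Tyms, where it ends 56 bases before the start, against 6.02% of all windows. The E2F letters searched (TTTCGCGC, TTTGGCGC, TTTCCCGC and TTTGCCGC) were in none of the 9 windows and in 1.86% of all, and the ATF/CREB letters (TGACGTCA) in none of the 9 and in 1.55% of all. Only exact matches before the RefSeq start were searched, so sites with other letters or beyond the window were not counted. That start is not always the start of the GENCODE M21 gene whose coordinates are given below. The windows of Rrm2 and Tk1 run into the GENCODE genes, and those of Mthfd2 and Shmt1 lie inside them. CCAAT boxes were thus present both in enzymes that passed the test (Rrm1, Rrm2) and in 3 that did not (Mthfd1, Mthfd2 and Shmt1). GC boxes were likewise in Rrm2, Tyms and Tk1 and in Mthfd1, Shmt1 and Cad. With 2 libraries per population, not passing the test does not show that an enzyme was equal between populations.

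The 4 enzymes of deoxynucleotide supply, Rrm1, Rrm2, Tyms and Tk1, were highest in marked GFP cells. Against marked Thy1.1 cells, which also carry tdTomato but have the other reporter, these 4 of the 9 enzymes rose and none fell (edgeR quasi-likelihood test, Benjamini-Hochberg adjusted over all genes tested). Over all genes, 8.01% were called higher and 6.82% lower in that comparison, 14.8% in all. The median log2 fold change was 0.65 over the 9 enzymes and -0.01 over all genes. The folate enzymes and Cad did not pass the test.

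**Figure D1:**
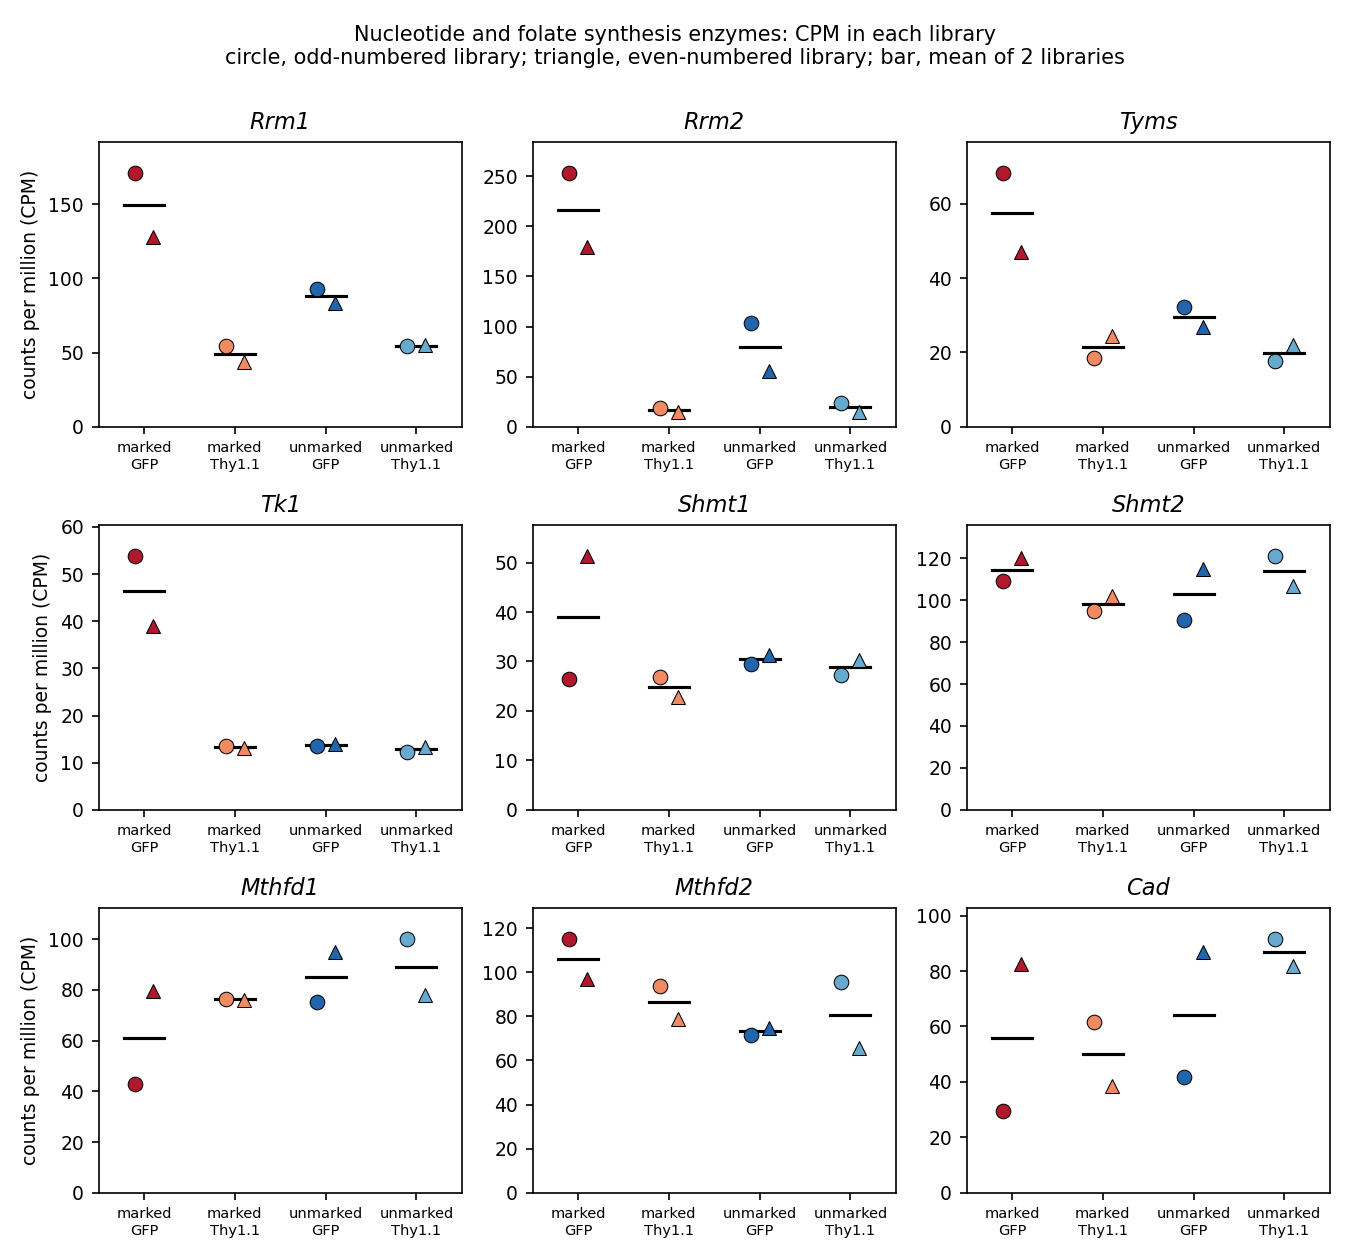
CPM of each enzyme (vertical axis, from 0) in each library of the 4 populations (horizontal axis), with the mean of 2 libraries as a bar. Rrm1, Rrm2, Tyms and Tk1 have both marked GFP libraries above all others, while Cad and Mthfd1 spread within marked GFP cells from 29.4 to 82.5 CPM and from 42.9 to 79.4 CPM.

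Rrm2, the S-phase subunit of the reductase (chr12:24708241-24714146, plus strand, GENCODE M21 on GRCm38), moved furthest. It stood at 253 and 179 CPM in marked GFP cells, 19.1 and 15.1 CPM in marked Thy1.1 cells, 104 and 56.0 CPM in unmarked GFP cells, and 24.0 and 14.8 CPM in unmarked Thy1.1 cells. Both GFP populations lay above both Thy1.1 populations in every library, and the 2 Thy1.1 populations overlapped. In marked cells the log2 fold change of GFP over Thy1.1 was 3.66 ± 0.37 (SE, 2 libraries each), a 12.6-fold difference with an adjusted p of 0.00176. Leaving out any 1 of the 8 libraries kept the log2 value between 3.33 and 3.87 and the adjusted p at 0.0216 or below.

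Rrm1, the catalytic subunit (chr7:102441695-102469771, plus strand), followed the same order over a narrower range. Its levels were 171 and 128 CPM in marked GFP cells, 54.4 and 43.4 CPM in marked Thy1.1 cells, 92.7 and 83.6 CPM in unmarked GFP cells, and 54.5 and 55.1 CPM in unmarked Thy1.1 cells. Neither GFP population overlapped a Thy1.1 population, and the 2 Thy1.1 populations did not differ by the test. GFP over Thy1.1 in marked cells gave a log2 fold change of 1.61 ± 0.18 (adjusted p = 0.00207), and the call held without any 1 library, at log2 values of 1.33 to 1.79.

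Because the subunits moved by different amounts, their ratio differed between the populations. Per kilobase of exon, Rrm2 was 2.69 and 2.55 times the level of Rrm1 in marked GFP cells, 0.640 and 0.634 times in marked Thy1.1 cells, 2.04 and 1.22 times in unmarked GFP cells, and 0.801 and 0.491 times in unmarked Thy1.1 cells. Rrm2 transcripts thus exceeded Rrm1 transcripts per kilobase in the 4 GFP libraries and lay below them in the 4 Thy1.1 libraries. In counts not divided by exon length, Rrm2 was 1.12 and 0.669 times Rrm1 in unmarked GFP libraries 3 and 4. This ratio was described and not tested.

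Tyms, the synthesis route to dTMP (chr5:30058202-30073617, minus strand), was at 68.2 and 47.0 CPM in marked GFP cells, 18.4 and 24.5 CPM in marked Thy1.1 cells, 32.3 and 26.9 CPM in unmarked GFP cells, and 17.6 and 22.1 CPM in unmarked Thy1.1 cells. The marked GFP libraries stood above the other 6, and the unmarked GFP libraries lay just above the 4 Thy1.1 libraries. In marked cells its log2 fold change of GFP over Thy1.1 was 1.43 ± 0.25 (adjusted p = 0.0104). Without marked Thy1.1 library 1 the value was 1.18 and the adjusted p 0.103, so that call was lost without it. A processed copy, Tyms-ps, is 93.9% identical over the whole coding sequence of 921 bases. It reached at most 2.01 CPM, and reads shared between the copies could have been split.

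Tk1, the salvage route (chr11:117815526-117826092, minus strand), had a pattern of its own. It was at 53.8 and 38.9 CPM in marked GFP cells, against 13.6 and 13.1 CPM in marked Thy1.1 cells, 13.6 and 13.9 CPM in unmarked GFP cells and 12.2 and 13.4 CPM in unmarked Thy1.1 cells. The other 6 libraries fell within 12.2 to 13.9 CPM, and marked GFP cells stood apart from all of them. The log2 fold change was 1.80 ± 0.22 against marked Thy1.1 cells (adjusted p = 0.00287) and 1.75 ± 0.22 against unmarked GFP cells (adjusted p = 0.00381). Both calls held without any 1 library. The exons of Tk1 share 83 bases with Afmid on the other strand, and the kit does not mark strand.

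The ratio of salvage to synthesis differed less between populations than the reductase ratio. Tk1 was 1.73 and 1.82 times Tyms per kilobase in marked GFP cells, 1.62 and 1.18 times in marked Thy1.1 cells, 0.928 and 1.13 times in unmarked GFP cells, and 1.53 and 1.33 times in unmarked Thy1.1 cells. The marked GFP libraries lay above the other 6, and the lowest ratios were those of unmarked GFP cells, in which Tyms was above the Thy1.1 populations in CPM and Tk1 was close to them.

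**Figure D2:**
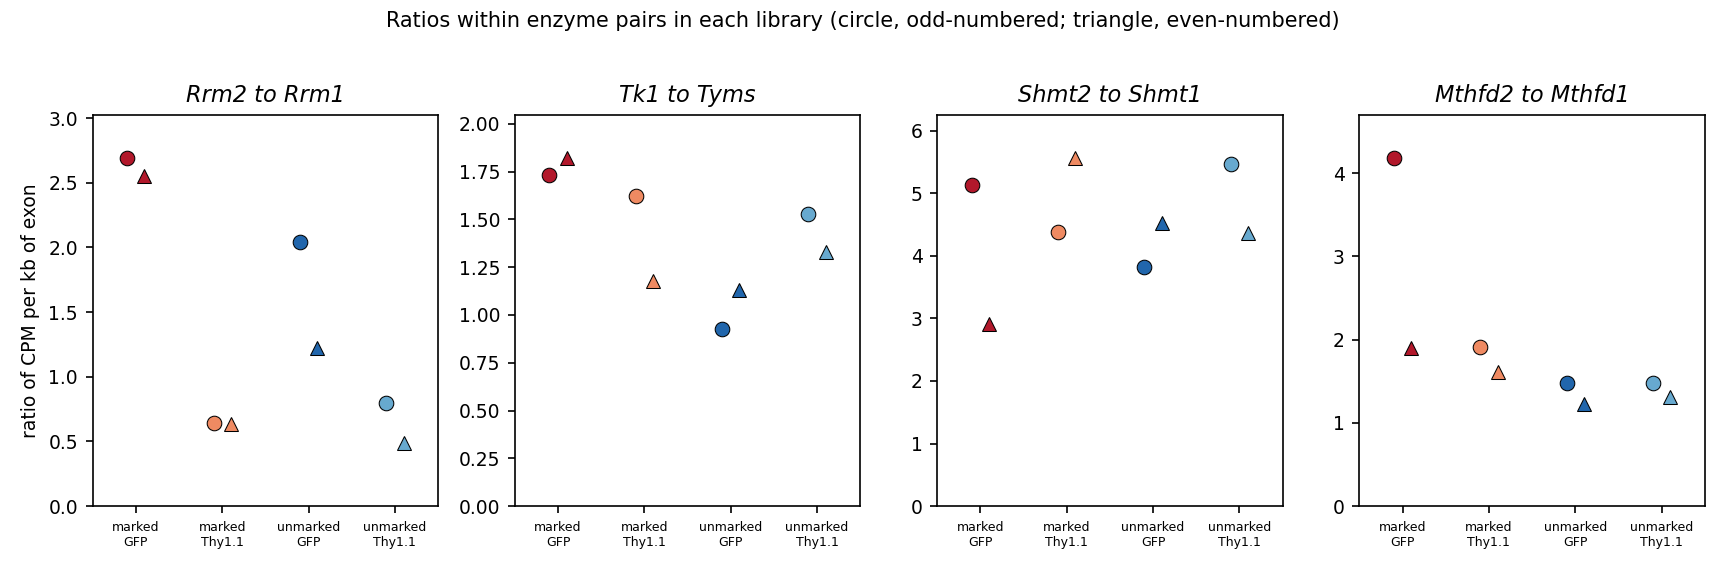
Ratio of CPM per kilobase of exon within 4 enzyme pairs (vertical axes, from 0) in each library of the 4 populations (horizontal axis). Rrm2 to Rrm1 is 1.22 or more in the GFP libraries and 0.801 or less in the Thy1.1 libraries. Tk1 to Tyms is highest in the marked GFP libraries and lowest in the unmarked GFP libraries, and Mthfd2 to Mthfd1 is higher in the 4 marked libraries than in the 4 unmarked ones.

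The 4 folate enzymes did not pass the test in any comparison. Shmt2, the mitochondrial serine enzyme (chr10:127517123-127522444, minus strand), was the steadiest of the 9. It stood at 109 and 120 CPM in marked GFP cells, 94.7 and 102 CPM in marked Thy1.1 cells, 90.7 and 115 CPM in unmarked GFP cells, and 121 and 107 CPM in unmarked Thy1.1 cells. Its log2 fold change of marked GFP over marked Thy1.1 cells was 0.22 ± 0.14 (adjusted p = 0.348). Mthfd2, the mitochondrial dehydrogenase (chr6:83305691-83325908, minus strand), was at 115 and 97.1 CPM in marked GFP cells, 94.0 and 78.9 CPM in marked Thy1.1 cells, 71.4 and 74.9 CPM in unmarked GFP cells, and 95.5 and 65.6 CPM in unmarked Thy1.1 cells. Both marked GFP libraries were above every other library, by a small margin, and the log2 fold change was 0.30 ± 0.19 against marked Thy1.1 cells (adjusted p = 0.351) and 0.54 ± 0.19 against unmarked GFP cells (adjusted p = 0.108).

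The cytosolic enzymes split the 2 marked GFP libraries. Shmt1 (chr11:60788104-60811718, minus strand) was at 26.5 CPM in marked GFP library 3 and 51.3 CPM in library 4, against 26.8 and 22.8 CPM in marked Thy1.1 cells, 29.5 and 31.4 CPM in unmarked GFP cells and 27.3 and 30.3 CPM in unmarked Thy1.1 cells. Only library 4 of the marked GFP cells stood apart, and the log2 fold change against marked Thy1.1 cells was 0.65 ± 0.29 (adjusted p = 0.182). Without library 3 it was 1.0 with an adjusted p of 0.0269. Mthfd1 (chr12:76255298-76319803, plus strand) was at 42.9 and 79.4 CPM in marked GFP libraries 3 and 4, 76.4 and 76.1 CPM in marked Thy1.1 cells, 75.1 and 94.8 CPM in unmarked GFP cells, and 100 and 78.0 CPM in unmarked Thy1.1 cells. Here library 3 stood low. The log2 fold change against marked Thy1.1 cells was -0.32 ± 0.27 (adjusted p = 0.492), and it was -0.84 (adjusted p = 0.0413) without library 4 and 0.01 without library 3. The values of both enzymes against marked Thy1.1 cells thus turned on which marked GFP library was kept. Shmt1 exons overlap those of Smcr8 on the other strand by 184 bases, Mthfd1 those of Gm47525 by 37 and Shmt2 those of Ndufa4l2 by 32.

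The mitochondrial enzyme of each folate pair was the more abundant per kilobase in every library. Shmt2 was 2.91 to 5.56 times the level of Shmt1 and Mthfd2 was 1.23 to 4.18 times that of Mthfd1, the highest value being in marked GFP library 3. Mthfd2 was 4.18 and 1.90 times Mthfd1 in marked GFP cells, 1.91 and 1.61 times in marked Thy1.1 cells, 1.48 and 1.23 times in unmarked GFP cells, and 1.48 and 1.31 times in unmarked Thy1.1 cells. All 4 marked libraries thus lay above all 4 unmarked libraries, a difference that was described and not tested. The Shmt2 to Shmt1 ratios overlapped between marked and unmarked cells and between the reporters. Which enzyme of the Mthfd pair was the more abundant depended on the division by exon length. In counts without it, Mthfd2 was 0.95 and 0.789 times Mthfd1 in unmarked GFP cells and 0.955 and 0.841 times in unmarked Thy1.1 cells.

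Cad (chr5:31054780-31078479, plus strand) varied most between libraries of 1 population. It was at 29.4 and 82.5 CPM in marked GFP cells, 61.5 and 38.4 CPM in marked Thy1.1 cells, 41.7 and 86.9 CPM in unmarked GFP cells, and 91.5 and 82.0 CPM in unmarked Thy1.1 cells. The 2.81-fold gap within marked GFP cells exceeded every fold between population means. Its log2 fold change of marked GFP over marked Thy1.1 cells was 0.16 ± 0.49 (adjusted p = 0.869), an error larger than that of any other enzyme. It was -0.78 without marked GFP library 4 and 0.67 without library 3.

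**Figure D3:**
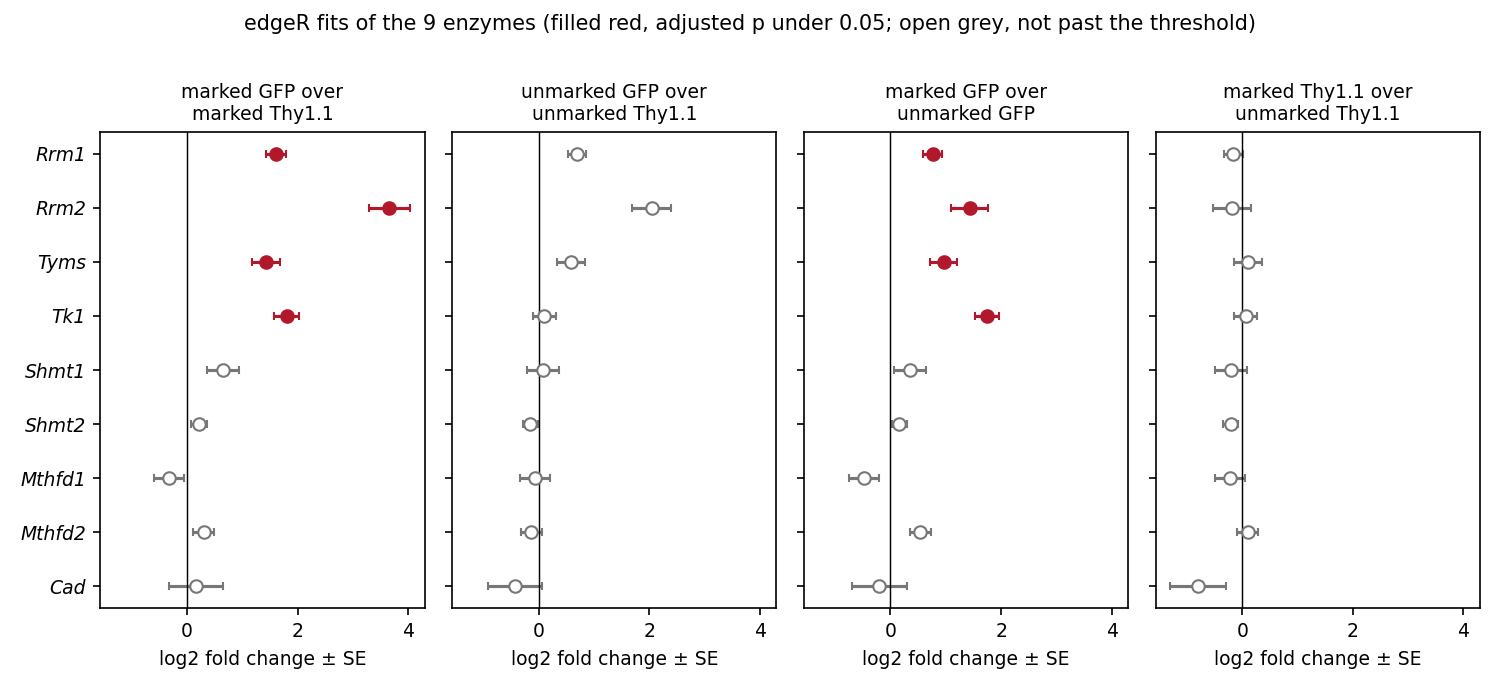
log2 fold change ± SE (horizontal axes) of the 9 enzymes (rows) in 4 comparisons, from 1 edgeR fit of all 8 libraries. Rrm1, Rrm2, Tyms and Tk1 are past the threshold in the 2 panels with marked GFP cells, no enzyme is in the other panels, and Cad has the widest bars.

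Within the GFP reporter, marked cells were set against unmarked cells; this comparison shares the 2 marked GFP libraries with the one above. The same 4 enzymes were called higher and none lower, where 6.24% of all genes were called higher and 6.4% lower (12.6% in all). The log2 fold changes of marked over unmarked cells were 1.75 ± 0.22 for Tk1 (adjusted p = 0.00381), 0.76 ± 0.17 for Rrm1 (adjusted p = 0.029), 1.43 ± 0.34 for Rrm2 (adjusted p = 0.032) and 0.96 ± 0.25 for Tyms (adjusted p = 0.044). The other 5 enzymes ran from -0.48 ± 0.27 (Mthfd1) to 0.54 ± 0.19 (Mthfd2), and the median was 0.54 over the 9 enzymes and 0.03 over all genes.

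Of these 4 calls, that of Tk1 held in all 16 alternative fits, with a log2 value of 1.46 to 1.96. The other 3 lay near the threshold. Without marked GFP library 3 the log2 values were 0.49 for Rrm1 (adjusted p = 0.131), 1.12 for Rrm2 (adjusted p = 0.132) and 0.63 for Tyms (adjusted p = 0.209). Without unmarked GFP library 4 they were 0.65, 1.02 and 0.79 (adjusted p = 0.173, 0.16 and 0.236). Leaving out unmarked GFP library 3 lost Rrm1 (0.84, adjusted p = 0.0604) and Tyms (1.1, adjusted p = 0.0789). Leaving out either Thy1.1 library of the unmarked cells also lost Rrm1 and Tyms, and leaving out either of the marked cells lost Rrm1, Rrm2 and Tyms, at adjusted p of 0.0507 to 0.0779, although these libraries enter only through the shared estimate of the spread. Without marked GFP library 4 all 4 calls held and Mthfd1 was called lower (-0.99, adjusted p = 0.0296). A fit of the 4 GFP libraries by themselves gave adjusted p of 0.0984 for Rrm1, 0.0821 for Rrm2 and 0.108 for Tyms.

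Among unmarked cells, GFP over Thy1.1, no enzyme was called (0 of 9), beside 0.164% of all genes in either direction (23 genes) and 0.0643% called higher. At an unadjusted p under 0.05 the number was 1662 genes, and DESeq2 called 581 and limma voom 3. Rrm2 had a log2 fold change of 2.04 ± 0.35 (adjusted p = 0.0653), Rrm1 of 0.69 ± 0.17 (adjusted p = 0.178) and Tyms of 0.58 ± 0.25 (adjusted p = 0.421), while Tk1 was at 0.10 ± 0.21 (adjusted p = 0.911). These 4 were higher in both unmarked GFP libraries than in either unmarked Thy1.1 library, which held for 21.4% of all genes. Rrm2 passed the threshold under 5 of the 16 alternative fits, among them with adjusted p of 0.0341 with no filter on low counts, 0.0393 with a stricter filter, 1.75e-08 in DESeq2 and 0.0308 without unmarked GFP library 4. DESeq2 also called Rrm1 (adjusted p = 0.0113).

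Within the Thy1.1 reporter, marked over unmarked cells, no enzyme and no other gene was called by edgeR (0% of all genes), or by limma voom, while 1063 genes were at an unadjusted p under 0.05 and DESeq2 called 148. The 4 deoxynucleotide enzymes lay between -0.18 ± 0.34 (Rrm2) and 0.11 ± 0.25 (Tyms) on the log2 scale. Cad was lowest, at -0.80 ± 0.50 (adjusted p = 0.773). Of the 9 enzymes, 5 (Shmt1, Shmt2, Mthfd1, Rrm1 and Cad) were lower in both marked libraries than in either unmarked one, which held for 21.8% of all genes, and none was higher in both. The median was -0.18 over the 9 enzymes and 0.01 over all genes.

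Whether the marked-to-unmarked difference itself differed between the reporters was tested as an interaction. No enzyme passed, where 0.443% of all genes did and 0.0929% did with a positive value (62 genes in all, with 1792 at an unadjusted p under 0.05, 568 called by DESeq2 and 28 by limma voom). Positive values mean a larger rise with marking in GFP cells. They were 1.70 ± 0.30 for Tk1 (adjusted p = 0.0768), 0.92 ± 0.24 for Rrm1 (adjusted p = 0.188), 1.62 ± 0.48 for Rrm2 (adjusted p = 0.228) and 0.85 ± 0.35 for Tyms (adjusted p = 0.371) on the log2 scale. DESeq2 called 3 of these, Tk1 (adjusted p = 0.000654), Rrm2 (adjusted p = 0.0122) and Rrm1 (adjusted p = 0.029). Tk1 also passed without marked GFP library 4 (1.91, adjusted p = 0.0458).

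Across the 8 libraries, which share their populations, Pearson correlations of log2 CPM between Rrm1, Rrm2, Tyms and Tk1 ran from 0.826 (Rrm2 with Tk1) to 0.979 (Rrm1 with Rrm2). Cad was nearest to Mthfd1 (0.805), Shmt2 to Cad (0.536), Shmt1 to Rrm2 (0.502) and Mthfd2 to Tk1 (0.705). Mthfd1 ran against Tyms (-0.758), Tk1 (-0.738) and Rrm1 (-0.613). With the summed CPM of 29 replication and cell cycle genes, the correlations were 0.986 for Rrm1, 0.979 for Rrm2, 0.946 for Tyms and 0.910 for Tk1. They were 0.554 for Shmt1, 0.527 for Mthfd2, 0.264 for Shmt2, -0.304 for Cad and -0.602 for Mthfd1. That sum was 3040 and 2740 CPM in marked GFP cells, 1090 and 1020 CPM in marked Thy1.1 cells, 1800 and 1500 CPM in unmarked GFP cells, and 1160 and 1150 CPM in unmarked Thy1.1 cells, the same order of populations as for Rrm1 and Rrm2. Of 9518 genes outside the lists, the 5 whose pattern was most like the mean of the 9 enzymes were Mdm2 (0.963), Slain2 (0.962), Gna13 (0.953), Cradd (0.953) and Sec61a1 (0.946).

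The direct partners of the 4 enzymes were read from fixed lists, whose counts stand beside 8.01% of all genes called higher and 6.82% lower in marked GFP over marked Thy1.1 cells, and 6.24% and 6.4% in marked over unmarked GFP cells. Of 7 genes that feed, replace or oppose the reductase, 1 rose and 1 fell in marked GFP over marked Thy1.1 cells. Glrx, glutaredoxin, an electron donor of the reductase, was at 581 and 482 CPM in marked GFP cells, 113 and 130 CPM in marked Thy1.1 cells, 258 and 131 CPM in unmarked GFP cells, and 68.9 and 72.7 CPM in unmarked Thy1.1 cells. Its log2 fold change was 2.13 ± 0.28 (adjusted p = 0.00364). Rrm2b, the p53-induced small subunit that serves cells outside S phase, went the other way, at 58.4 and 60.4 CPM in marked GFP cells and 85.8 and 91.1 CPM in marked Thy1.1 cells (log2 -0.57 ± 0.12, adjusted p = 0.02). Rrm2b was also at 61.8 and 67.2 CPM in unmarked GFP cells, against 94.6 and 82.0 CPM in unmarked Thy1.1 cells, so all 4 GFP libraries lay below all 4 Thy1.1 libraries. Its exons share 260 bases with Gm49085 on the other strand. The 2 small subunits thus differed in sign in marked cells. Samhd1, which breaks deoxynucleotides down, was at 825 and 1160 CPM in marked GFP cells, 568 and 866 CPM in marked Thy1.1 cells, 728 and 945 CPM in unmarked GFP cells, and 573 and 796 CPM in unmarked Thy1.1 cells. The odd-numbered library was the lower one in all 4 populations, and the log2 fold change of 0.47 ± 0.26 in marked cells did not pass (adjusted p = 0.266). With odd and even library numbers fitted as a block, Samhd1 passed (0.48 ± 0.07, adjusted p = 0.00773). Without the block, the thioredoxin Txn1 did not pass (0.65 ± 0.19, adjusted p = 0.055). Between marked and unmarked GFP cells, Glrx (1.45 ± 0.27, adjusted p = 0.0163) and Txn1 (0.74 ± 0.19, adjusted p = 0.0411) were the 2 of 7 that rose, and Rrm2b was at -0.12 ± 0.12 (adjusted p = 0.579).

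Of 20 tested genes of pyrimidine synthesis and salvage, 6 rose and none fell in marked GFP over marked Thy1.1 cells, with a list median of 0.10 on the log2 scale. Dctpp1, which clears unwanted deoxynucleotides such as modified dCTP, rose by 1.99 ± 0.23 (58.8 and 50.7 CPM in marked GFP cells, against 13.2 and 14.4 CPM in marked Thy1.1 cells, adjusted p = 0.00241). Dck, the salvage kinase for deoxycytidine, rose by 1.1 ± 0.11 (adjusted p = 0.00181), at 190 and 195 CPM in marked GFP cells against 86.7 and 93.4 CPM in marked Thy1.1 cells. Dut, which removes dUTP and yields the substrate of Tyms, rose by 1.11 ± 0.23 (adjusted p = 0.0167), and the nucleotide kinases Nme1 (0.57 ± 0.11), Cmpk1 (0.47 ± 0.12) and Nme2 (0.46 ± 0.12) rose less. The ring synthesis genes after Cad did not pass, Dhodh at -0.22 ± 0.26 (adjusted p = 0.628) and Umps at 0.40 ± 0.15 (adjusted p = 0.125), and neither did Dtymk, which phosphorylates the product of Tyms and Tk1, at 0.08 ± 0.14 (adjusted p = 0.759). Dhodh split the marked GFP libraries as Cad did, with 23.7 CPM in library 3 and 36.6 CPM in library 4. In marked over unmarked GFP cells, Dctpp1, Dck, Dut and Nme1 rose again (1.15 ± 0.22, 0.55 ± 0.11, 0.90 ± 0.22 and 0.41 ± 0.11), and Uck2, a uridine and cytidine kinase, fell (-0.79 ± 0.11, adjusted p = 0.00547).

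Of 23 tested folate carriers and one-carbon enzymes, 2 rose and 1 fell in marked GFP over marked Thy1.1 cells, about the shares of all genes (8.01% higher and 6.82% lower), and the median was 0.06. Psat1, of the serine synthesis pathway, rose by 0.87 ± 0.21 (adjusted p = 0.0313), while Phgdh, the entry enzyme of that pathway, was at 0.33 ± 0.15 (adjusted p = 0.195). The mitochondrial Mthfd1l (-0.33 ± 0.20, adjusted p = 0.327) and the folate carrier Slc19a1 (0.38 ± 0.16, adjusted p = 0.153) did not pass. The folate receptor Folr2 had no read in either marked GFP library, against 1.1 and 1.03 CPM in marked Thy1.1 cells, and was at least 14.4-fold lower when set against a floor of 3 reads per library. It is a scarce transcript whose exons lie largely (796 of 1320 bases) over a gene on the other strand. Between marked and unmarked GFP cells, Mtfmt, which formylates the mitochondrial initiator tRNA from folate, rose (0.65 ± 0.18, adjusted p = 0.0494), and Folr2 was again the 1 that fell.

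Of 23 tested purine genes, 4 rose and 2 fell in marked GFP over marked Thy1.1 cells, and the median was -0.14. Of all genes, 8.01% were called higher and 6.82% lower there, so the count that fell was near the share over all genes. The salvage enzymes Pnp (0.97 ± 0.21), Aprt (0.92 ± 0.19) and Hprt (0.51 ± 0.11) were among those that rose, and the nucleoside kinases Dguok (-0.65 ± 0.13) and Adk (-0.51 ± 0.11) fell. No gene of the purine ring pathway was among those called, the ring enzyme Paics being at 0.36 ± 0.11 (adjusted p = 0.0719). Between marked and unmarked GFP cells, Aprt (0.98 ± 0.19) and Pnp (0.80 ± 0.21) were among 3 that rose, and Impdh1, of the guanine branch, fell (-0.81 ± 0.15, adjusted p = 0.0142). In that comparison 6.24% of all genes were called higher and 6.4% lower, so the 1 that fell was not above the share over all genes.

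**Figure D4:**
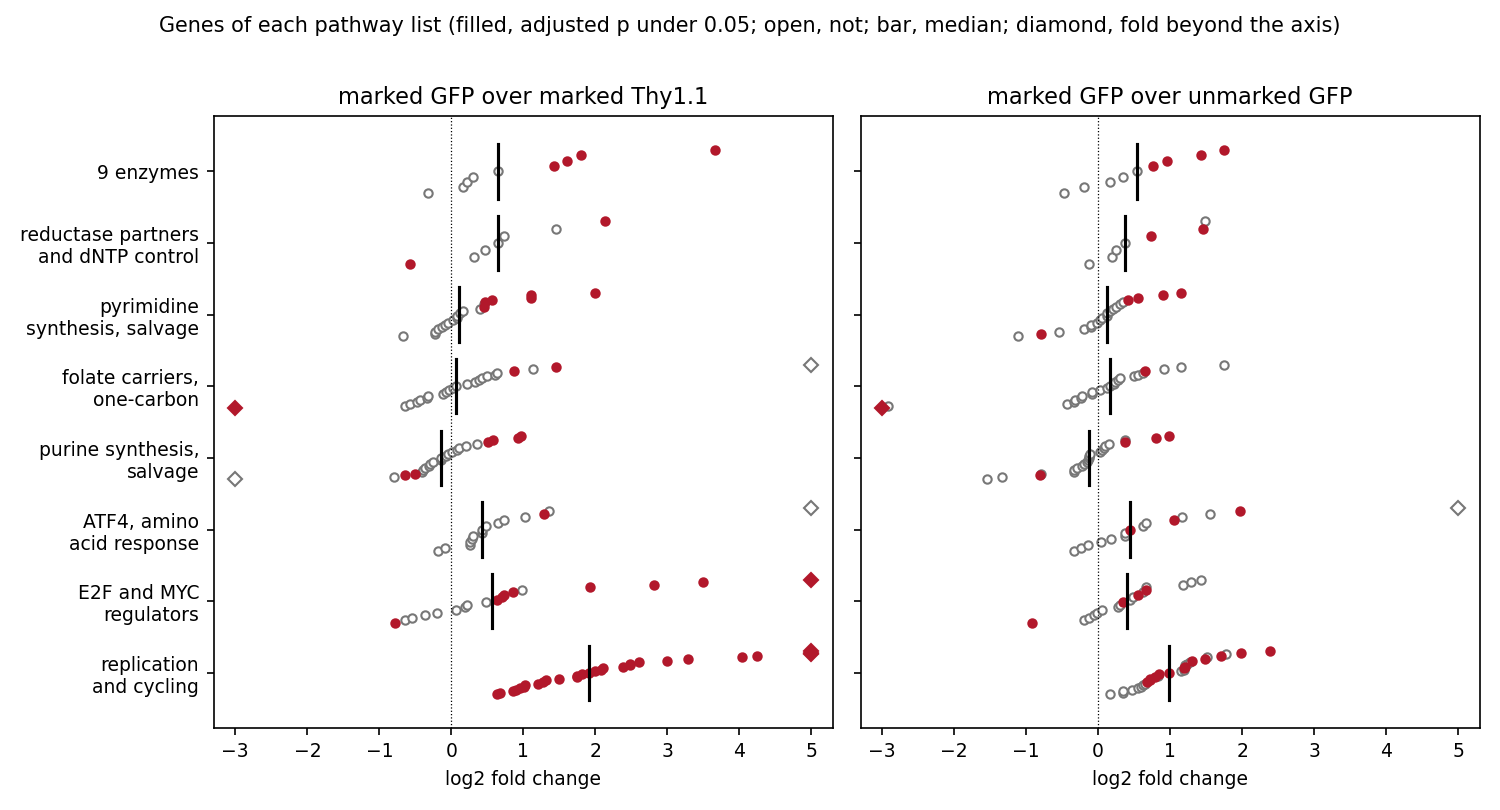
log2 fold change (horizontal axes) of every tested gene of 8 lists (rows) in marked GFP over marked Thy1.1 cells and in marked GFP over unmarked GFP cells; bars are list medians and diamonds at the edges are folds beyond the axis. The replication genes lie to the right of 0 in both panels, with medians of 1.91 and 0.98, and the purine list is spread about 0, with medians of -0.14 and -0.12.

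Of the regulators, 8 of 18 tested E2F and MYC genes rose and 1 fell in marked GFP over marked Thy1.1 cells. E2f1 was at 31.1 and 17.0 CPM in marked GFP cells and 7.47 and 5.12 CPM in marked Thy1.1 cells (log2 1.93 ± 0.41, adjusted p = 0.0198). The repressor E2f7 was at 17.8 and 12.1 CPM in marked GFP cells, against 0.0409 and 0.114 CPM in marked Thy1.1 cells, and Mybl2 (2.81 ± 0.44) and E2f8 (3.49 ± 0.59) rose as well. Myc, a known activator of nucleotide synthesis genes, was the 1 that fell, at 130 and 170 CPM in marked GFP cells, 241 and 274 CPM in marked Thy1.1 cells, 251 and 316 CPM in unmarked GFP cells, and 265 and 318 CPM in unmarked Thy1.1 cells. Its log2 fold change was -0.78 ± 0.17 against marked Thy1.1 cells (adjusted p = 0.0214) and -0.92 ± 0.17 against unmarked GFP cells (adjusted p = 0.0152). Marked GFP cells thus had the lowest Myc of the 4 populations and the highest Rrm1, Rrm2, Tyms and Tk1. Of 15 tested genes of the ATF4 and amino acid response, which acts on the mitochondrial folate enzymes, Eif4ebp1 was the 1 that rose (1.29 ± 0.21, adjusted p = 0.00785). That count is near the share of all genes called higher, 8.01%. Atf4 itself was at 0.48 ± 0.15 (adjusted p = 0.0689). In marked over unmarked GFP cells, 3 of the regulators rose (E2f4 by 0.56 ± 0.11, Rb1 by 0.35 ± 0.09 and Tfdp1 by 0.66 ± 0.17), as did 3 of the amino acid response genes (Cebpb, Eif4ebp1 and Slc3a2), and E2f1 was at 0.67 ± 0.40 (adjusted p = 0.315). All 29 tested replication and cell cycle genes rose in marked GFP over marked Thy1.1 cells (median 1.91), among them the helicase subunits Mcm2 (1.27 ± 0.11) and Mcm5 (1.74 ± 0.15) and the proliferation marker Mki67 (2.48 ± 0.40), and 13 of 29 rose in marked over unmarked GFP cells (median 0.98).

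No gene of these 7 lists was called in unmarked GFP over unmarked Thy1.1 cells or in marked over unmarked Thy1.1 cells. Of all genes, 0.164% and 0% were called there, so a count of 0 says little about the lists. The replication list had a median log2 fold change of 0.84 in the first comparison and -0.14 in the second. Over all genes the medians were 0.0 and 0.01. In the interaction, 3 of 29 replication genes passed with a positive value, where 0.0929% of all genes did. Among them were Mcm2 (0.96 ± 0.15, adjusted p = 0.0478) and Uhrf1 (2.70 ± 0.37, adjusted p = 0.0326).

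Markers of other cells were uneven in 2 libraries. Summed over 6 erythroid markers, marked GFP library 3 held 47.6 CPM and library 4 held 5.4 CPM, against 1.73 to 3.72 CPM in the other 6 libraries; globin Hba-a2 made up 29.5 CPM in library 3. Summed over 11 myeloid and dendritic cell markers, unmarked GFP library 3 held 133 CPM, with H2-Aa at 34.0 CPM and Siglech at 36.8 CPM, against 9.91 to 38.2 CPM in the other 7. The B cell sum was 19.1 and 8.62 CPM in marked GFP cells and 24.5 to 45.7 CPM elsewhere. Plasma cell markers other than Xbp1 were at 1.72 CPM or less. Without marked GFP library 3, the 4 enzymes still rose against marked Thy1.1 cells, at log2 values of 3.33 (Rrm2), 1.33 (Rrm1), 1.49 (Tk1) and 1.08 (Tyms), with adjusted p of 0.00534 to 0.0471, and 22 of 29 replication genes, 2 of 21 pyrimidine genes, 5 of 18 E2F and MYC genes, 1 of 7 reductase partners and 1 of 24 folate genes were called higher, beside 3.67% of all genes. The folate count is thus at the share over all genes. Dut (0.80), Rrm2b (-0.60) and Myc (-0.65) were then no longer called, and the purine list had a median log2 fold change of -0.06. In marked over unmarked GFP cells, 4 of 29 replication genes and none of 21 pyrimidine genes were then called higher, beside 2% of all genes. Without unmarked GFP library 3, 28 of 29 replication genes were called higher in marked GFP over marked Thy1.1 cells and 13 of 29 in marked over unmarked GFP cells, beside 7.75% and 5.07% of all genes. The part of the B cell markers in these differences was not tested.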

How the data were processed

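Per the file headers, the authors deposited unnormalized counts, 1 whole number per gene and library. Per the labels' protocols, polyA RNA went through SMART-Seq v4 amplification (12 cycles) and library PCR (8 cycles) before paired reads of 50 bases; the kit does not mark strand. Aligner, annotation and build: not given in the sources used here. DESeq is listed without a version in the submitters' processing notes. Rows without a gene name (8 of 24116, 0.0215% to 0.0264% of reads) were left out. Depth was 38085686 to 47908198 reads, so counting error was at most 4.17% for any of the 9 enzymes. The 2 libraries of each population differed by more than sampling noise. GFP columns carry other numbers than the sample titles and were matched to their population only.

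All 8 libraries entered 1 edgeR 4.0.16 quasi-likelihood fit (R 4.3.3, TMM scaling, filterByExpr with a minimum count of 10, robust) with a mean per population; SE is the log2 fold change over the root of F. P-values were adjusted by Benjamini-Hochberg over 13989 genes, with a threshold of 0.05, and the code was checked on simulated counts. Alternatives used other scaling, filters, DESeq2 1.42.0, limma 3.58.1 voom, fewer libraries and a replicate block. Named genes were the 9 enzymes, set partners, and per list the 6 smallest adjusted p past the threshold and the 3 most abundant not past it. The members and lists were chosen with earlier results of these data known. Exons were taken from GENCODE M21 (GRCm38), promoters from RefSeq. Some list genes that this rule names are not reported here.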

Additional observations from a re-analysis of the deposited data

How the results depend on the processing

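Of 711 values of single enzymes under the alternatives, 653 kept their direction and side of the threshold, 24 lost a call, 14 gained one and 20 changed sign. The calls of Rrm1, Rrm2 and Tk1 in marked GFP over marked Thy1.1 cells held in all 16 alternatives. In marked over unmarked GFP cells the count of 4 called enzymes was 1 when only the populations compared were fitted, 3 with library totals (Tyms at an adjusted p of 0.0503), 3 with the replicate block, and 1 to 5 when 1 library was left out. In unmarked GFP over unmarked Thy1.1 cells the count of 0 was 1 with no filter, 1 with the stricter filter, 2 in DESeq2, 1 with the replicate block, and 0 to 1 when 1 library was left out. The interaction count of 0 was 3 in DESeq2, 1 with the replicate block and 0 to 1 when 1 library was left out. The values that changed sign were all of enzymes not called, and, except for Cad in voom (-0.04, marked GFP over marked Thy1.1 cells), all came from leaving out 1 library. Over those fits the log2 values in marked GFP over marked Thy1.1 cells ran from -0.78 to 0.67 for Cad and from -0.84 to 0.01 for Mthfd1. In unmarked GFP over unmarked Thy1.1 cells they ran from -0.32 to 0.01 (Shmt2), -0.24 to 0.13 (Mthfd1), -0.37 to 0.16 (Mthfd2) and -1.05 to 0.00 (Cad). In marked over unmarked GFP cells they ran from -0.20 to 0.71 (Shmt1) and -1.13 to 0.38 (Cad). In marked over unmarked Thy1.1 cells they ran from -0.10 to 0.33 (Tyms), -0.12 to 0.41 (Mthfd2), -0.31 to 0.00 (Rrm1) and -0.47 to 0.22 (Rrm2), and in the interaction from -0.76 to 0.06 (Mthfd1) and -0.33 to 1.16 (Cad). The cause was not tested. Where a population is left with 1 library, that library is assumed to vary like the others.

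The odd and even library numbers were fitted as a replicate block. The correlation of odd-minus-even differences between populations was 0.079 to 0.153, GFP and Thy1.1 libraries share no number, and only 2 numbers exist per population, so the numbers were not taken as pairs. With the block, the counts of called enzymes changed as given above: Rrm2 had an adjusted p of 0.0159 in unmarked GFP over unmarked Thy1.1 cells and 0.0388 in the interaction, and Tyms in marked over unmarked GFP cells was at 0.96 with an adjusted p of 0.0568. Samhd1, lower in the odd-numbered library of all 4 populations, was at 0.48 ± 0.07 with the block in marked GFP over marked Thy1.1 cells (adjusted p = 0.00773). The enzymes had at least 574 reads in every library.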
